A study of Mus musculus with 10 samples.

Results

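miR-21a, miR-22 and miR-378a are microRNA hairpins of the mouse genome, each of which can release a mature strand from its 5′ side (the 5p arm) and another from its 3′ side (the 3p arm). The 3 hairpins give 6 entries of the 1907 in the deposited count table: mmu-miR-21a-5p, mmu-miR-21a-3p, mmu-miR-22-3p, mmu-miR-22-5p, mmu-miR-378a-3p and mmu-miR-378a-5p (the species prefix mmu is left out from here on). The hairpins were chosen by their abundance in these libraries, so how high they stand is given as a description. Differences between groups and the balance of the arms had no part in the stated choice. In which libraries the abundance was judged is not stated, and earlier results of these data were known. The p-values for levels between groups may therefore not be independent of the choice. The study sequenced small RNA of E14 mouse embryonic stem cells, a 129/Ola line grown in 15% serum with LIF at 100 U/mL on gelatine, in duplicate. The 5 groups were wild type (WT), Dgcr8 knockout, Drosha knockout, Dicer knockout and a double knockout of Ago1 and Ago2, written Ago12_KO here as in the labels, and all share the culture medium and the library kit. The WT libraries carry the names P25 and P33, and the Dicer_KO libraries carry C1 and H11. Nothing in the labels says that the other pairs come from separate cultures or clones, so every p-value measures only the spread between these libraries, which may be technical. The mRNAs of the deleted genes were not measured, so the genotype labels could not be checked against them.

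In the usual pathway the nuclear Microprocessor, made of the RNase Drosha and its RNA-binding partner Dgcr8, cuts a hairpin out of a longer transcript. Dicer then removes the loop in the cytoplasm and leaves a duplex of the 5p and 3p strands. An Argonaute protein keeps one strand as the guide and the other, the passenger, is usually lost; Ago1 and Ago2 are members of that family. miR-21 is known for its rise in tumours and for repressing Pdcd4, miR-22 has been studied in blood and heart, and miR-378a lies within Ppargc1b, a coactivator gene of mitochondrial metabolism.

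The mature strands of miR-21a and miR-22 are shown because the seed, bases 2 to 8 in capitals, is what pairs with targets, and because the arms of a hairpin carry different seeds. They are written 5′ to 3′ from RefSeq (build GRCm38.p6), whose table matched 4 of the 6 entries.
miR-21a-5p: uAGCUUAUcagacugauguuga
miR-21a-3p: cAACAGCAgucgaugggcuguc
miR-22-5p: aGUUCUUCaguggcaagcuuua
miR-22-3p: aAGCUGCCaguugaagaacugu
The 4 seeds differ from each other, so a shift from one arm to the other replaces one set of possible seed matches by another. All 4 strands are 22 bases long, and 16 bases separate the arms in both hairpins. The GC content was 36.4% in miR-21a-5p and 59.1% in miR-21a-3p, against 40.9% in miR-22-5p and 45.5% in miR-22-3p. On the minus strand of chromosome 11, miR-21a-5p is at chr11:86584120-86584141 and miR-21a-3p at chr11:86584082-86584103. On the plus strand of the same chromosome, miR-22-5p is at chr11:75463734-75463755 and miR-22-3p at chr11:75463772-75463793.

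In the GENCODE M21 annotation of GRCm38, Mir21a (chr11:86584067-86584158) lies in a UTR exon of Vmp1, an autophagy gene on the same strand. Mir22 (chr11:75463716-75463810) lies in an exon of its host transcript Mir22hg, which overlaps an exon of Tlcd2. Mir378a (chr18:61397835-61397900) lies in an intron of Ppargc1b on the same strand. A second annotated miRNA gene, Gm25301, covers the Mir378a locus on the opposite strand, and whether reads were counted by strand is not given in the sources used here.

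Levels are given as CPM, counts per 1000000 counts that the library assigned to any miRNA entry. CPM is a share of the miRNA counts and not an amount per cell, and in bulk RNA fewer cells of a type and less RNA per cell cannot be told apart. The WT libraries held 2357868 and 1943868 counts, and the other groups' mean totals were 6.16 (Dgcr8_KO), 53.9 (Drosha_KO), 52.0 (Dicer_KO) and 7.43 (Ago12_KO) times smaller. Each Drosha_KO and Dicer_KO library held 37476 to 45222 counts, so that 3 counts, the limit that a count of 0 allows, ranged from 1.27 CPM in the deepest library to 80.1 CPM in the shallowest. A summed list of 14 embryonic stem cell miRNAs (the miR-290 and miR-302 families) made up 17.3 to 18.5% of WT counts. It made up 15.8 to 20.7% in Dgcr8_KO and Drosha_KO, 10.3 to 11.3% in Ago12_KO and 1.55 to 1.63% in Dicer_KO. Most of the WT sum was miR-295-3p (101528 CPM), and its members moved both ways. Against WT, miR-293-3p went from 10099 to 134 CPM in Dgcr8_KO and miR-291a-3p from 4425 to 25727 CPM in Drosha_KO. In Ago12_KO miR-302d-3p had 90.8 CPM against 17.1 CPM in WT. In Dicer_KO, 5 entries whose reads may be fragments of other RNAs (miR-6236, miR-6239, miR-6240, miR-1983 and miR-3963) took 46.9 to 48.5% of the counts, against 0.354 to 0.464% in WT. The Drosha_KO libraries stood apart from each other at miR-127-3p, with 4 counts in replicate 1 and 3220 in replicate 2.

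In WT each hairpin had one arm that dominated, and this was the 5p arm for miR-21a and the 3p arm for miR-22 and miR-378a. miR-22-3p was the most abundant of the 6, at 24827 and 22110 CPM, the 7th and 9th highest entry of its library. miR-378a-3p stood at 3785 and 3133 CPM and miR-21a-5p at 2575 and 2247 CPM. The other strands were far rarer in the same libraries. miR-21a-3p had 115 and 102 CPM, miR-378a-5p had 19.1 and 17 CPM, and miR-22-5p had 6.79 and 7.20 CPM from 16 and 14 counts. As whole hairpins, miR-22 took 2.35% ± 0.192 of WT counts (SD, n = 2), miR-378a 0.348% ± 0.0463 and miR-21a 0.252% ± 0.0241.

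**Figure D1:**
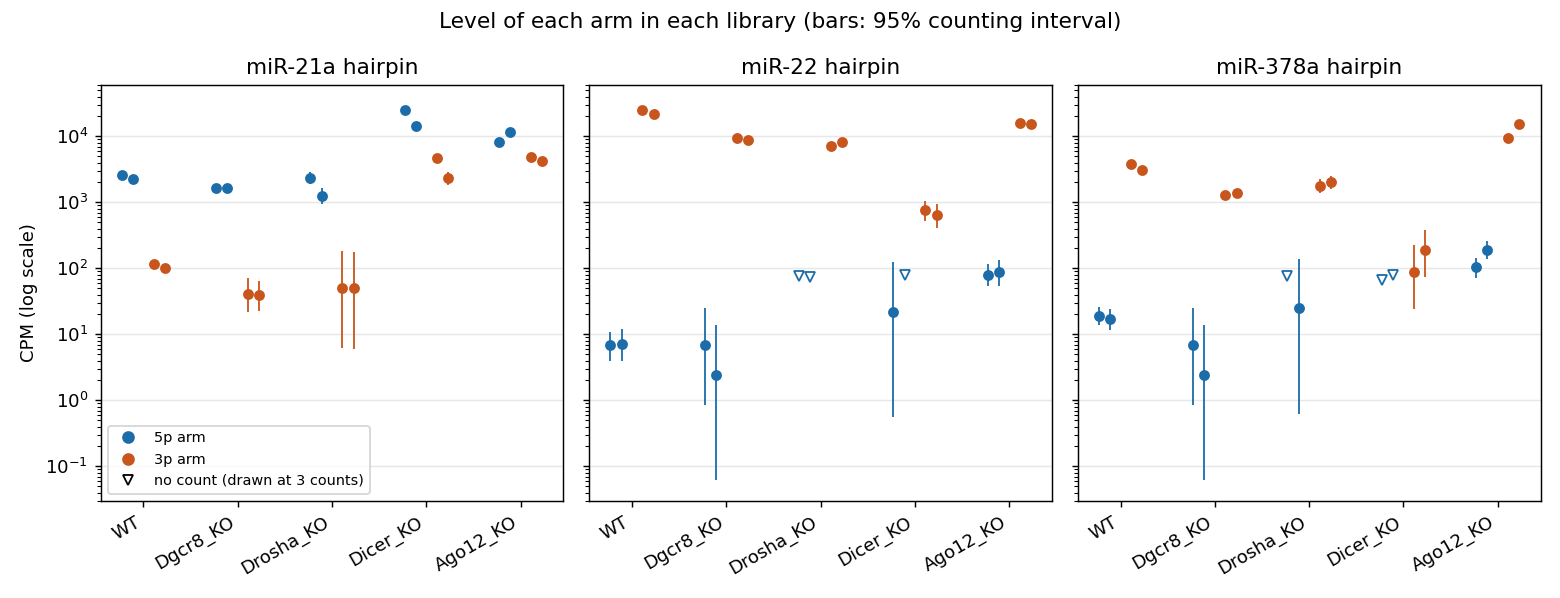
CPM (log scale) of the 5p arm (blue) and the 3p arm (orange) of each hairpin in each of the 10 libraries, with bars for the 95% counting interval and open triangles, drawn at 3 counts, for a count of 0. Both miR-21a arms are highest in Dicer_KO and Ago12_KO, whereas miR-22-3p is highest in WT (24827 and 22110 CPM) and both 3p arms of miR-22 and miR-378a are lowest in Dicer_KO.

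Without Dgcr8, 3 of the 4 arms that passed the filter on low counts in every group took a smaller share: miR-22-3p, miR-378a-3p and miR-21a-3p. miR-22-3p, the guide strand of its hairpin, had 9280 and 8822 CPM in Dgcr8_KO, 2.59-fold below WT, with no overlap between the groups (log2 fold change -1.37, SE 0.25, adjusted p = 0.000534 by edgeR's quasi-likelihood test). miR-378a-3p had 1299 and 1390 CPM, 2.57-fold below WT (log2 fold change -1.36, SE 0.33, adjusted p = 0.00323). These 3p arms are the dominant strands of their hairpins, and the 2 folds lay within 1 SE of each other. miR-21a-3p had 41.4 and 39.2 CPM from 12 and 16 counts (log2 fold change -1.43, SE 0.40, adjusted p = 0.00751), a call that was lost without Dgcr8_KO replicate 2 (adjusted p = 0.0664). miR-21a-5p had 1647 and 1620 CPM, below both WT libraries, but its log2 fold change of -0.56 (SE 0.36) did not pass the test (adjusted p = 0.180). Of all 481 entries tested in this comparison, 73.4% were called, 32.4% as higher and 41% as lower, and the median log2 fold change was -0.41, so a lower share was common among miRNAs in these libraries.

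Without Drosha, the nuclease that Dgcr8 serves, miR-22-3p and miR-378a-3p again took a smaller share. miR-22-3p had 7087 and 8287 CPM, 3.05-fold below WT (log2 fold change -1.61, SE 0.25, adjusted p = 0.000225). miR-378a-3p had 1797 and 2010 CPM (log2 fold change -0.86, SE 0.34, adjusted p = 0.0457), and this value sat at the threshold: it was 0.101 without Drosha_KO replicate 1, and also missed the threshold without either WT library or either Dgcr8_KO library. With DESeq2 size factors it was 0.0823, with no filter 0.0756 and with totals that leave out the fragment-like entries 0.0597. The miR-21a arms rested on few counts here. miR-21a-5p had 92 and 51 counts, 2328 and 1265 CPM, so that the upper library reached into the WT range and the lower one did not (log2 fold change -0.42, SE 0.37, adjusted p = 0.341). miR-21a-3p had 2 counts in each library, 50.6 and 49.6 CPM (log2 fold change -1.11, SE 0.62, adjusted p = 0.143). Both miR-21a values passed the test with TMM factors (adjusted p = 0.00659 for the 5p arm and 0.00787 for the 3p arm). Of the 481 entries, 57.8% were called, 31.6% as lower, with a median of -0.87, which is close to the change of miR-378a-3p. Leaving out Drosha_KO replicate 1 or 2, the libraries that differ at miR-127-3p, gave a log2 fold change for miR-22-3p of -1.50 and -1.73.

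Set against each other directly, the Microprocessor mutants gave smaller differences for these arms than the comparisons with WT, and none passed the test. The log2 fold change of Dgcr8_KO over Drosha_KO was -0.14 for miR-21a-5p (adjusted p = 0.871), -0.32 for miR-21a-3p (0.849), 0.24 for miR-22-3p (0.590) and -0.50 for miR-378a-3p (0.370). Of all entries, 13.9% were called here (5.61% higher, 8.32% lower). The sign for the miR-21a arms and miR-378a-3p turned with TMM factors, so no order between these groups can be read from them. The minor arms of miR-22 and miR-378a were at or near 0 in both. miR-22-5p had 2 and 1 counts in Dgcr8_KO and none in Drosha_KO. miR-378a-5p had 2 and 1 counts in Dgcr8_KO, 0 and 1 in Drosha_KO. Against WT, the counting ratio of miR-378a-5p was 0.237 in Dgcr8_KO (95% interval 0.0478 to 0.719) and 0.691 in Drosha_KO (0.0173 to 3.96), and that of miR-22-5p was 0.616 in Dgcr8_KO (0.120 to 1.98); these intervals cover counting error only.

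Without Dicer, the hairpins parted: both arms of miR-21a took a larger share of the remaining miRNA counts, and the dominant arms of miR-22 and miR-378a a far smaller one. miR-21a-5p had 25143 and 14329 CPM in Dicer_KO, the 8th and 9th highest entry, against 2575 and 2247 CPM in WT. This is 8.19-fold above WT, with a log2 fold change of 3.03 (SE 0.39, adjusted p = 5.39e-05), although without scaling to the totals the same counts, 1137 and 537 against 6072 and 4367, give -2.64. The unscaled setting carries the 52.0-fold difference in mean totals into every fold, and the part of sequencing depth in it was not tested. miR-21a-3p, the rarer strand, had 4732 and 2295 CPM, 32.4-fold above WT (log2 fold change 5.02, SE 0.40, adjusted p = 1.94e-06; -0.64 without scaling). In both arms, each Dicer_KO library lay above both WT libraries, and the 2 Dicer_KO libraries differed from each other more than the WT libraries did. miR-22-3p had 752 and 640 CPM from 34 and 24 counts, 33.7-fold below WT (log2 fold change -5.07, SE 0.30, adjusted p = 3.32e-07). miR-378a-3p had 88.5 and 187 CPM from 4 and 7 counts, 25.1-fold below WT (log2 fold change -4.68, SE 0.44, adjusted p = 4.86e-06).

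These changes stand beside a general fall. Of the 481 entries, 13.3% were called higher and 42.6% lower in Dicer_KO, and the median log2 fold change was -2.78. By fold, miR-21a-3p was the 26th and miR-21a-5p the 56th from the highest of the 481. With library totals that leave out the 5 fragment-like entries, the log2 fold changes were 5.95 for miR-21a-3p, 3.97 for miR-21a-5p, -4.14 for miR-22-3p and -3.75 for miR-378a-3p, with all 4 calls kept. Reckoned on those totals, the miR-21a hairpin took 4.46% of the Dicer_KO counts in place of 2.32% ± 0.937 (SD, n = 2), miR-22 0.135% in place of 0.0707% ± 0.00944, and miR-378a 0.0262% in place of 0.0138% ± 0.00695. The minor arms could not be followed: miR-22-5p had 1 count in Dicer_KO replicate 1 and none in replicate 2, a counting ratio to WT of 1.73 (0.0425 to 10.4), and miR-378a-5p had none in either, where 3 counts over the group stand at 36.3 CPM.

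The comparison with Drosha_KO, whose libraries were as shallow as those of Dicer_KO, gave the same directions. The log2 fold change of Dicer_KO over Drosha_KO was 3.46 for miR-21a-5p (adjusted p = 3.75e-05) and 6.13 for miR-21a-3p (adjusted p = 4.64e-06). For miR-22-3p it was -3.46 (adjusted p = 2.94e-06), and for miR-378a-3p -3.82 (adjusted p = 3.34e-05). All 4 arms were called, where 43.9% of all entries were (13.5% higher, 30.4% lower), and each kept its sign under TMM factors, DESeq2 size factors, no scaling and totals without the fragment-like entries. The totals of these libraries lay close together, and both miR-21a arms were higher in Dicer_KO with and without scaling.

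Without Ago1 and Ago2, both miR-21a arms and miR-378a-3p took a larger share of the counts, and miR-22-3p did not. miR-21a-5p had 8230 and 11512 CPM, 4.09-fold above WT (log2 fold change 2.03, SE 0.37, adjusted p = 0.000806; -0.92 without scaling). miR-21a-3p had 4898 and 4294 CPM, 42.4-fold above WT (log2 fold change 5.40, SE 0.40, adjusted p = 3.63e-06), and kept its direction without scaling, at 2.52. It was the 7th of the 481 entries by fold, while miR-21a-5p was the 101st. miR-378a-3p had 9530 and 15366 CPM, 3.6-fold above WT (log2 fold change 1.85, SE 0.33, adjusted p = 0.000712; -1.13 without scaling).

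The passenger strands of miR-22 and miR-378a passed the filter on low counts only through these Ago12_KO libraries, so their levels are given as a description, with no test. miR-22-5p had 80.2 and 87.2 CPM from 28 and 20 counts, against 6.79 and 7.20 CPM in WT. miR-378a-5p had 103 and 192 CPM from 36 and 44 counts, against 19.1 and 17 CPM in WT. Of the strands that passed in every group, miR-22-3p had 15697 and 15470 CPM against 24827 and 22110 CPM in WT, and its log2 fold change of -0.59 (SE 0.25) did not pass the test (adjusted p = 0.0619), although it did with TMM factors (0.00692), with DESeq2 size factors (0.0171) and with DESeq2 (0.000225). So 3 of the 4 arms that passed in every group were called, all higher; of all 481 entries 54.5% were called, 28.7% as higher, and the median was -0.016.

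**Figure D2:**
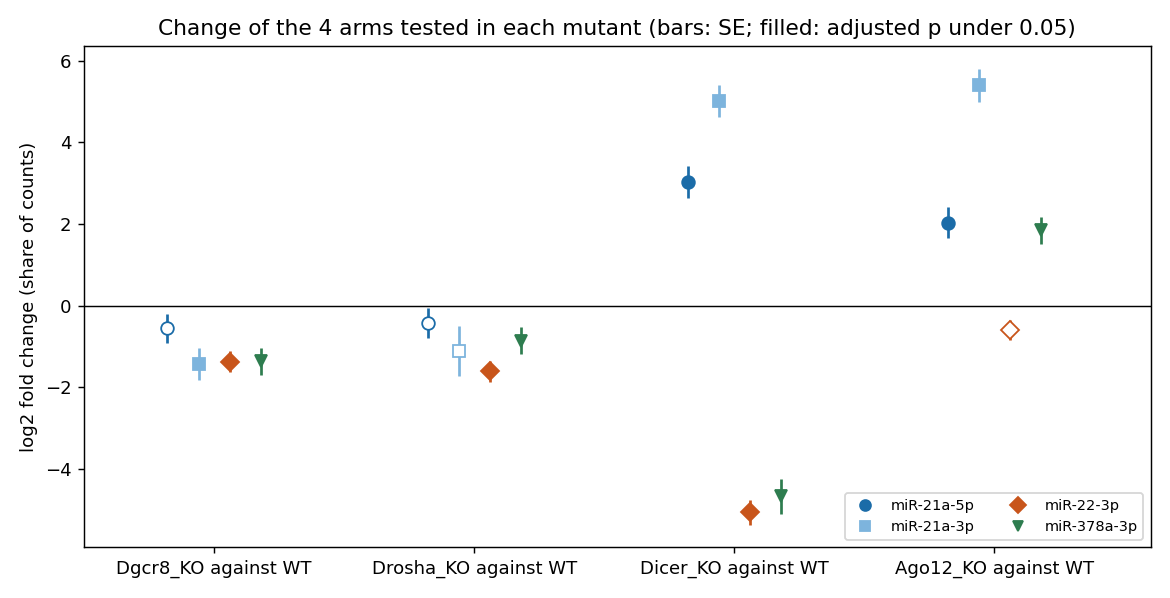
Log2 fold change of the 4 arms that passed the filter in every group, in each mutant against WT (vertical axis, share of counts), with bars for the standard error and filled symbols for an adjusted p under the threshold of 0.05. The miR-21a arms lie above 0 in Dicer_KO and Ago12_KO and below 0 in Dgcr8_KO and Drosha_KO, while miR-22-3p lies below 0 in all 4. Without scaling to the totals, both miR-21a arms in Dicer_KO and miR-21a-5p and miR-378a-3p in Ago12_KO would lie below 0. The unscaled setting carries the lower totals of the mutants into every fold.

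Ago12_KO and Dicer_KO, the groups in which miR-21a was high, were then compared directly. miR-22-3p and miR-378a-3p were far higher in Ago12_KO, with log2 fold changes of 4.48 (adjusted p = 9.08e-07) and 6.53 (adjusted p = 1.20e-06). miR-21a-5p was lower in Ago12_KO (log2 fold change -1.0, adjusted p = 0.0420; 1.72 without scaling), a call that was lost in 7 of the 10 fits that left out a library, most of all without Dicer_KO replicate 1 (-0.54, adjusted p = 0.340). miR-21a-3p did not pass the test (log2 fold change 0.38, adjusted p = 0.400), and its libraries overlapped between the groups. miR-378a-5p had no count in Dicer_KO. Its mean in Ago12_KO was 4.06 times the level that 3 counts over the Dicer_KO group stand for, with single libraries at 103 and 192 CPM. It passed the filter only through Ago12_KO, so this is a description. Single Dicer_KO libraries were too shallow to place it below Ago12_KO. Here 3 of the 4 arms that passed in every group were called, against 47.4% of all entries (38.5% higher, 8.94% lower), and the median of all entries was 2.38.

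Ordered by mean CPM, the groups ran differently for each hairpin. For miR-21a-5p the order was Dicer_KO (19736 ± 7646, SD, n = 2), Ago12_KO (9871 ± 2321), WT (2411 ± 232), Drosha_KO (1797 ± 752) and Dgcr8_KO (1634 ± 19.4), where Drosha_KO overlapped both of its neighbours. For miR-21a-3p it was Ago12_KO (4596 ± 427) and Dicer_KO (3514 ± 1724), which overlapped, then WT (108 ± 8.58), Drosha_KO (50.1 ± 0.706) and Dgcr8_KO (40.3 ± 1.62). The Drosha_KO value rests on 2 counts in each library, with counting intervals of 6.13 to 183 and 6.01 to 179 CPM. These take in the WT and Dgcr8_KO means, and neither difference passed edgeR's test (adjusted p = 0.143 against WT and 0.849 against Dgcr8_KO). For miR-22-3p it was WT (23468 ± 1921), Ago12_KO (15583 ± 160), Dgcr8_KO (9051 ± 324), Drosha_KO (7687 ± 849) and Dicer_KO (696 ± 78.8), with no overlap between neighbours. For miR-378a-3p it was Ago12_KO (12448 ± 4126), WT (3459 ± 461), Drosha_KO (1903 ± 150), Dgcr8_KO (1344 ± 64.6) and Dicer_KO (138 ± 69.5), again with no overlap. For miR-22-3p and miR-378a-3p the difference between Dgcr8_KO and Drosha_KO did not pass edgeR's test (adjusted p = 0.590 and 0.370). The step from WT to Ago12_KO for miR-22-3p did not pass it either (adjusted p = 0.0619). That from WT to Drosha_KO for miR-378a-3p sat at the threshold (adjusted p = 0.0457). At these steps the order is that of the means alone. The strand that led in WT, miR-22-3p, thus stood below both arms of miR-21a in Dicer_KO. By mean CPM the minor arms were highest in Ago12_KO, at 83.7 ± 4.97 CPM for miR-22-5p and 147 ± 62.7 CPM for miR-378a-5p. The other groups lay at 18.0 CPM or less on average. These arms passed the filter only through Ago12_KO, so their order is a description. Single Drosha_KO and Dicer_KO libraries were too shallow to be placed below Ago12_KO. Their upper counting limits were 91.5 to 123 CPM for miR-22-5p and 81.6 to 138 CPM for miR-378a-5p. Pooled over libraries, the counting ratio of Ago12_KO to Dicer_KO for miR-22-5p was 6.86 (1.17 to 276). This interval rests on 1 count in Dicer_KO and covers counting error only, and it is likewise a description.

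The arms of one hairpin come from the same precursor and the same library, so their ratio does not depend on the library total. In WT, miR-21a-3p made up 4.26% of the miR-21a counts in one library (95% Clopper-Pearson interval 3.77 to 4.78) and 4.36% in the other (3.78 to 4.99). In Dgcr8_KO the share was 2.45% (1.27 to 4.25) and 2.36% (1.35 to 3.80), and in Drosha_KO 2.13% (0.259 to 7.48) and 3.77% (0.460 to 13.0). It was 15.8% (13.9 to 17.9) and 13.8% (11.2 to 16.8) in Dicer_KO, and 37.3% (35.9 to 38.7) and 27.2% (25.7 to 28.6) in Ago12_KO. The passenger strand of miR-21a thus approached the guide in Ago12_KO, where the 5p arm was 2.05 times as frequent as the 3p arm over both libraries, against 22.3 times in WT and 5.58 in Dicer_KO. In the Microprocessor mutants the ratio was 40.7 (Dgcr8) and 35.8 (Drosha).

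Tested with limma on log2(5p/3p) over 84 hairpins, the balance of miR-21a moved towards the 3p arm by 10.4-fold in Ago12_KO (log2 change -3.38, SE 0.46, adjusted p = 0.00182) and by 3.86-fold in Dicer_KO (log2 change -1.95, SE 0.46, adjusted p = 0.0109). The Dicer_KO call was lost without either WT library (adjusted p = 0.0723 without replicate 1 and 0.0734 without replicate 2), whereas an edgeR test on the counts of both arms, added after the data were seen, gave 2.14e-05, with 22.7% of 150 hairpins called. In Dgcr8_KO the change was 0.82, towards the 5p arm (SE 0.46, adjusted p = 0.474), and passed only when no other group entered the fit (0.0298). In Drosha_KO it was 0.32 (adjusted p = 0.651). Of the 84 hairpins, 1.19% were called for Dgcr8 loss and 13.1% for Drosha loss. The share called was 48.8% in Dicer_KO (22.6% towards the 3p arm) and 41.7% in Ago12_KO (25% towards the 3p arm), so a changed balance was common in the latter groups. The arm that is minor in WT gained in 59 of 84 hairpins in Dicer_KO, 68 in Ago12_KO, 58 in Drosha_KO and 37 in Dgcr8_KO. That arm was set from the WT counts that also enter these comparisons. Ranked by the gain of the minor arm, miR-21a was the 29th of 84 in Dicer_KO and the 11th in Ago12_KO.

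**Figure D3:**
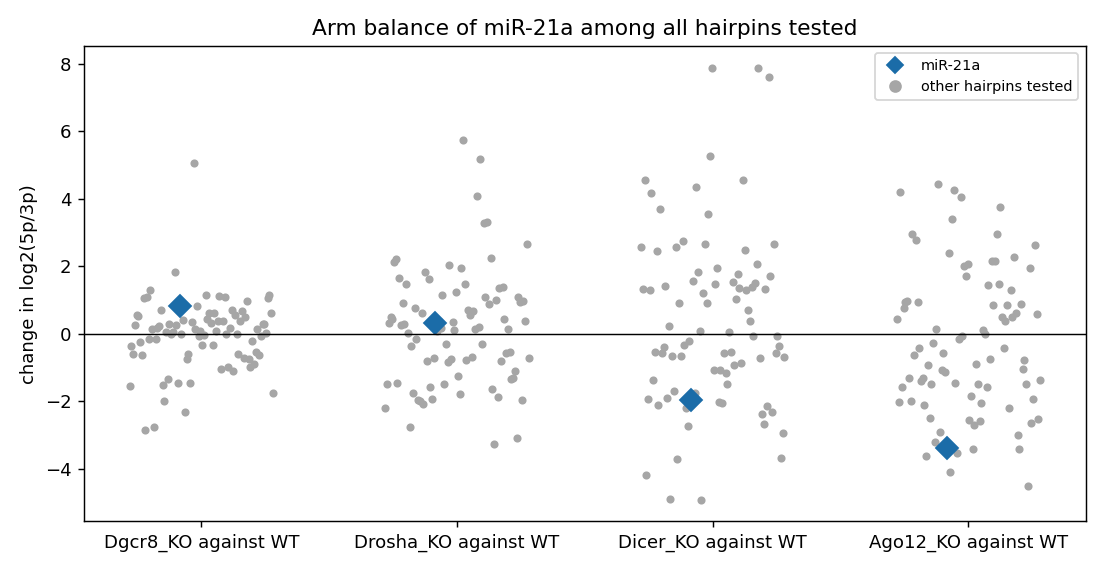
Change in log2(5p/3p) against WT (vertical axis) for miR-21a (blue diamond) and the other hairpins tested (grey points, spread sideways for visibility) in each mutant. miR-21a lies among the lower points in Ago12_KO (-3.38) and Dicer_KO (-1.95), near the middle in Drosha_KO (0.32) and among the higher points in Dgcr8_KO (0.82).

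The minor arms of miR-22 and miR-378a fell short of the mean of 20 counts set for that test, so their shares are given as a description. miR-22-5p made up 0.0273 and 0.0326% of the miR-22 counts in WT, and 0.508 and 0.560% in Ago12_KO. The Clopper-Pearson intervals reached at most 0.0546% in WT and at least 0.338% in Ago12_KO. miR-378a-5p made up 0.502 and 0.539% of the miR-378a counts in WT and 1.07 and 1.23% in Ago12_KO. Its intervals reached at most 0.756% in WT and at least 0.750% in Ago12_KO. In both hairpins the passenger share was larger in each Ago12_KO library than in either WT library, and even there the guide arms of miR-22 and miR-378a held nearly all of their counts. In the remaining groups the minor shares rested on 0 to 2 counts. In Dicer_KO replicate 1, 1 of 35 miR-22 counts was from the 5p arm (2.86%), and none of 24 in replicate 2.

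**Figure D4:**
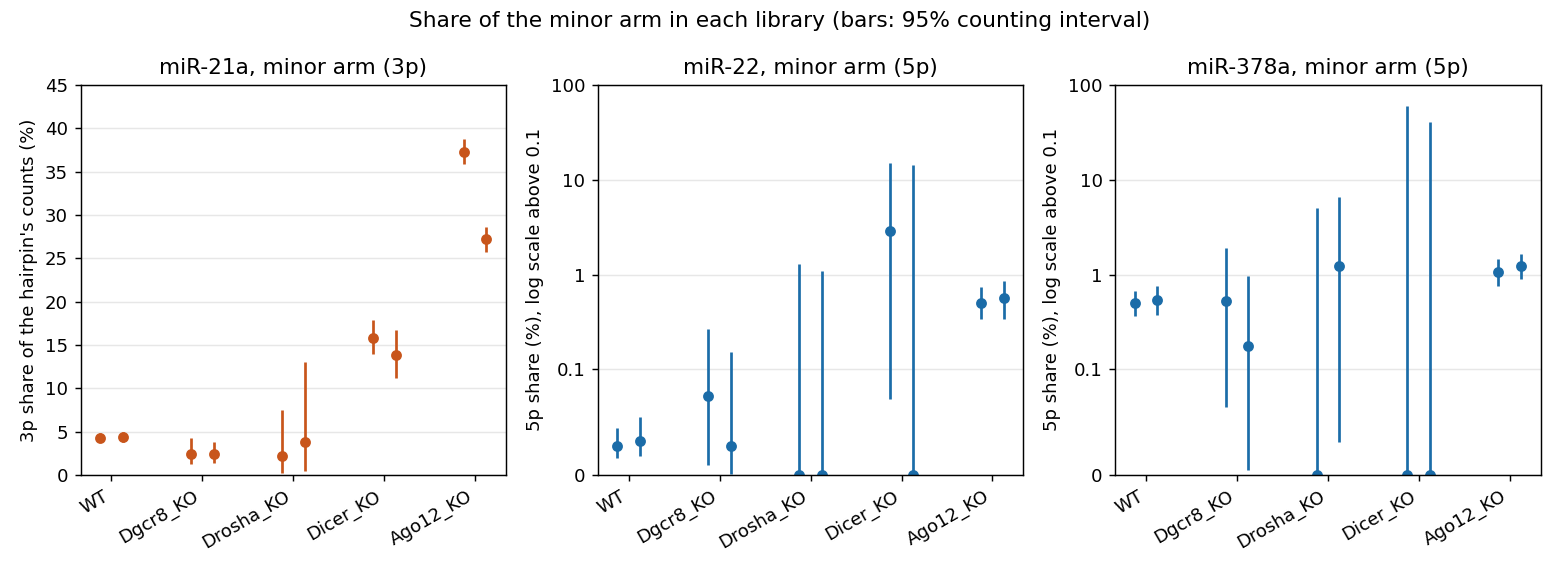
Share of the minor arm among the counts of its hairpin (%, linear axis for miR-21a, logarithmic above 0.1 for the others) in each library, with 95% Clopper-Pearson bars. The miR-21a 3p share is 37.3 and 27.2% in Ago12_KO against 4.26 and 4.36% in WT, and the bars of miR-22 and miR-378a in Drosha_KO and Dicer_KO are too wide to place them.

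Related hairpins share sequence with these miRNAs, and how reads that fit several were assigned is not given in the sources used here. miR-21c, whose mature strand has the seed of miR-21a-5p, had no count, and miR-21b had 2 counts in all. Among the copies of miR-378a, miR-378b had 27 counts, miR-378d 22 and miR-378c 595. miR-378c stood at 102 ± 6.49 CPM in Dgcr8_KO against 96.3 ± 12.5 CPM in WT (SD, n = 2; log2 fold change 0.08, adjusted p = 0.842). In Drosha_KO it had 1 count in all, a mean of 12.4 CPM (log2 fold change -2.92, SE 0.95, adjusted p = 0.0234). In Ago12_KO it had 183 ± 12.1 CPM (log2 fold change 0.92, adjusted p = 0.0470), and in Dicer_KO it had no count.

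The entries whose levels ran most like each dominant arm over the 10 libraries were found by the root mean square difference of their centred log2 CPM, among 326 entries. Their patterns across the groups follow from this choice and are given as a description. For miR-21a-5p the closest was miR-182-3p (0.69), followed by miR-295-5p (0.72) and by miR-30c-1-3p (0.77), where the median entry differed by 2.70. All 3 are strands that were low in WT, at 56.5, 558 and 81.7 CPM, and all had their higher means in Dicer_KO and Ago12_KO. For miR-22-3p they were miR-148b-5p (0.46), miR-148a-3p (0.48) and miR-130a-3p (0.57), against a median of 2.16. miR-148a-3p fell from 12214 CPM in WT to 501 in Dicer_KO and stood at 10079 in Ago12_KO. For miR-378a-3p they were miR-669o-3p (0.62), miR-191-5p (0.76) and miR-125a-5p (0.77), against a median of 2.42, and miR-191-5p was likewise highest in Ago12_KO (28031 CPM) and lowest in Dicer_KO (1128 CPM).

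Marker miRNAs of other cell types also differed between the groups. The summed liver, gut and endoderm list stood at 6828 to 11743 CPM in Ago12_KO against 1564 to 1624 CPM in WT, most of it miR-192-5p. Of that list, miR-194-5p stood lower, at a mean of 79.6 CPM in Ago12_KO against 186 in WT, and miR-122-5p was at 0 in both. The summed blood list stood at 8660 to 11290 CPM in Ago12_KO against 1354 to 1765 CPM in WT. Most of it was miR-142a-5p and miR-150-5p, with miR-223-3p, miR-144-3p and miR-451a at 0. The blood list was also above WT in Dgcr8_KO (4725 to 4780 CPM) and Drosha_KO (3498 to 5644 CPM), and below it in Dicer_KO (427 to 597 CPM). Cells of the fibroblast or feeder list are a common source of miR-21. That list stood at 3153 to 4077 CPM in WT, 1715 to 3291 CPM in Ago12_KO and 686 to 774 CPM in Dicer_KO. It was within the WT range in Dgcr8_KO (3534 to 3727 CPM) and above it in Drosha_KO (5922 to 8262 CPM). Its sum rested mostly on miR-143-3p (2851 CPM in WT, 1461 in Ago12_KO and 226 in Dicer_KO), while miR-10b-5p was higher in the mutants, at 645 CPM in Ago12_KO and 359 in Dicer_KO against 59.8 in WT. miR-145a-5p and miR-199a-5p were also higher in Ago12_KO (56.4 and 17.2 CPM) than in WT (17.5 and 1.27 CPM), and miR-214-3p was at 0 in all libraries. The neural list also stood lower, at 789 to 925 CPM in Ago12_KO and 294 to 464 in Dicer_KO against 2980 to 3212 in WT. The part of other cells in the levels of the 3 hairpins was not tested.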

How the data were processed

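Small RNA libraries were made from 1 ug of Trizol-extracted total RNA by TruSeq small RNA preparation and read on a HiSeq2000, per the labels' protocols. The authors deposited one table of raw counts, a row for each mature miRNA, for the 10 libraries; the submitters' processing notes name Bowtie and mm10, while the counting tool, versions and handling of reads with several matches were not given in the sources used here. No row lacked a name, and 1262 of 1907 entries held a count. Entries were filtered with filterByExpr by group (minimum count 10, here 38.5 CPM in 2 libraries), leaving 481, and tested with the quasi-likelihood test of edgeR 4.0.16 (R 4.3.3) in one fit of all 5 groups with column totals as library sizes, 5 residual degrees of freedom and Benjamini-Hochberg adjustment. Column totals were used because TMM and size factors take most entries as unchanged. Folds in plain ratios are of mean CPM. Arm balance, log2 of (5p + 0.5)/(3p + 0.5), was tested with limma 3.58.1 over hairpins whose arms each averaged 20 counts or more. Both fits were tested on simulated data. DESeq2 1.42.0 was an alternative. Intervals and the limit of 3 counts cover counting error only. All 6 members were named, with related hairpins that hold a count and the 3 entries most like each dominant arm (of those with a mean of at least 50 CPM); no hairpin had its arm balance called in all 4 comparisons with WT. The members and lists were chosen with earlier results of these data known.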

Additional observations from a re-analysis of the deposited data

How the results depend on the processing

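Over all settings, 453 values of the 4 arms that passed the filter in every group kept their direction and side of the threshold, 18 gained and 17 lost the call, and 15 turned sign. Without scaling to the totals, entries called were 435 in place of 269 (Dicer_KO against WT), 353 in place of 67 (Dgcr8_KO against Drosha_KO) and 358 in place of 228 (Ago12_KO against Dicer_KO), and the calls against WT split into 51 higher and 329 lower for Dgcr8 (156 and 197 with column totals), 5 and 399 for Drosha (126 and 152), 6 and 429 for Dicer (64 and 205) and 16 and 336 for Ago12 (138 and 124). The medians against WT then moved to -3.02, -6.40, -7.52 and -2.88, since this setting carries the differences between library totals into every fold. Log2 fold changes that turned sign without scaling were miR-21a-3p -0.64 and miR-21a-5p -2.64 in Dicer_KO against WT, miR-21a-5p -0.92 and miR-378a-3p -1.13 in Ago12_KO against WT, miR-21a-3p 2.73, miR-21a-5p 2.99 and miR-378a-3p 2.63 in Dgcr8_KO against Drosha_KO (348 of its calls higher, 5 lower), and miR-21a-5p 1.72 in Ago12_KO against Dicer_KO (352 higher, 6 lower). TMM factors turned Dgcr8_KO against Drosha_KO for miR-21a-3p (0.35), miR-21a-5p (0.57) and miR-378a-3p (0.11), and split the calls 49 higher to 25 lower there (27 to 40 with column totals), 105 to 211 in Drosha_KO and 107 to 194 in Ago12_KO. DESeq2 size factors gave 146 calls (70 higher, 76 lower, against 185 and 43) in Ago12_KO against Dicer_KO with miR-21a-3p at -1.21, 84 to 106 in Dicer_KO against WT and 99 to 90 (65 to 146 with column totals) in Dicer_KO against Drosha_KO. Totals without the fragment-like entries, added after the data were seen, gave -0.53 for miR-21a-3p in Ago12_KO against Dicer_KO. Fits of only the groups compared called 112 of the 142 entries they tested for Dicer_KO against Drosha_KO, in place of 211 of 481. Leaving out each library in turn gave 29 to 94 calls for Dgcr8_KO against Drosha_KO, with miR-21a-5p at -0.51 to 0.37, and 144 to 245 for Ago12_KO against Dicer_KO, with miR-21a-3p at -0.042 to 1.00.

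Hairpins with a changed arm balance numbered 1, 11, 41 and 35 in Dgcr8_KO, Drosha_KO, Dicer_KO and Ago12_KO. A pseudocount of 1 gave 2 and 17 in the first pair, a minimum of 50 counts 7 in Drosha_KO, fits of only the groups compared 19 in Dgcr8_KO and 58 in Ago12_KO, and leaving out a library 0 to 7, 2 to 20, 14 to 49 and 23 to 49. The minimum of 5 counts tested more hairpins and called 5, 31, 75 and 57, and the edgeR count test called 9 in Dgcr8_KO, 4 in Drosha_KO and 101 in Ago12_KO. The miR-21a change in Dgcr8_KO was 0.82 (adjusted p = 0.0298) in a fit of only the groups compared, that in Drosha_KO ranged from -0.11 to 0.74 and that in Dicer_KO from -2.06 to -1.83 over left-out libraries. The cause of these differences was not tested.

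Libraries of the same number shared only the number (correlations of replicate differences between -0.06 and 0.14). A fit with the replicate block called 339, 270, 265 and 255 entries in the comparisons with WT and 66, 199 and 219 in the others; it ended the call of miR-21a-5p in Ago12_KO against Dicer_KO (adjusted p = 0.0539) and changed no other call of these arms. Depth limits the minor arms: a count of 0 in a Drosha_KO or Dicer_KO library allows up to 3 counts, 66.3 to 80.1 CPM, and the WT levels of miR-22-5p and miR-378a-5p lie below that.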
